A study of Mus musculus with 6 samples.

Results

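The mTOR pathway was followed through 10 genes in CD31-positive cells cultured from mouse liver, and all 10 were among the 13595 genes of the deposited table. They were taken by symbol: the kinase Mtor, its partners Rptor, Rictor and Deptor, the brake Tsc1 and Tsc2, the switch Rheb, the stress-induced inhibitors Ddit4 and Sesn2, and the effector Eif4ebp1. CD31 is a surface protein used to isolate endothelial cells, which line blood vessels. The cells came from C57BL6/J mice aged 4 weeks, and there were 3 libraries labelled male and 3 labelled female, numbered 4, 5 and 6 in each sex. Cells of every library had received indoxyl sulfate at 100 µM, a tryptophan metabolite that activates the aryl hydrocarbon receptor, together with 6 hours of hypoxia without normal nutrients. The 1 contrast here is thus female against male under treatment; untreated and DMSO cells were not analysed here. The labels do not say whether the replicates are mice, isolations or wells, so p-values measure only the spread between these libraries.

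mTOR is a protein kinase that matches cell growth to nutrients, growth factors, oxygen and energy. In complex 1 it works with raptor (Rptor) on the lysosome surface, where it is switched on by the small GTPase Rheb and, through phosphorylation of S6 kinase and of the 4E-binding proteins, promotes translation. In complex 2 it works with rictor (Rictor) and phosphorylates AKT. Tuberin (Tsc2) and hamartin (Tsc1) hold Rheb off. REDD1, the product of Ddit4, activates that brake in hypoxia, sestrin 2 (Sesn2) blocks the amino acid branch, and DEPTOR (Deptor) binds mTOR itself. Much of this control acts on proteins, which RNA levels do not show.

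Libraries held between 22303270 and 31189363 reads over the table, and each member had at least 1064 reads in every library. Values below are normalized read counts, that is, reads scaled by 1 factor per library. The sex labels were checked first. Xist averaged 0.323 ± 0.176 (SD, n = 3) under the male label and 286 ± 46.7 under the female label, but the Y-linked genes Ddx3y (57.0 ± 16.8 male, 52.1 ± 4.93 female) and Eif2s3y (58.1 ± 2.97 male, 29.8 ± 0.411 female) were read in both. Transcripts of the Y chromosome in the libraries labelled female go against their label, and every direction below rests on these labels. Male replicate 4 stood apart from male replicates 5 and 6 (chi-square per gene 43.6 and 45.4, against 5.98 between the latter pair), and results that turn on it are given with and without it. Endothelial markers summed to between 2300 and 2413 in the libraries labelled male and between 1208 and 1263 in those labelled female. Of the 12, 9 were called lower, 1 higher, 1 not called and 1, Cldn5, too low to test. Over all genes tested, 34.6% were called in each direction. In the female group the largest were Eng, Cdh5 and Emcn, with means of 415, 387 and 306. Others were weakly read there, with Vwf at a mean of 0.491, Erg at 1.52 and Egfl7 at 2.79. Cldn5 was at 0 in female replicate 4. Pecam1, which encodes CD31, averaged 407 in the male and 73.9 in the female group. Sinusoidal endothelial markers summed to between 491 and 530 against between 7.27 and 8.72, with Lyve1 between 470 and 513 against between 4.37 and 5.48, and with Stab2, Clec4g, Fcgr2b and Oit3 below a mean of 1 over the 6 libraries. The contractile, stellate and fibroblast markers summed to between 2034 and 2630 against between 3179 and 3857, with 4 of 11 listed genes called higher (Acta2, Tagln, Myh11 and Des) and 7 lower (Pdgfrb, Pdgfra, Rgs5, Dcn, Lum, Col1a1 and Col3a1). These sums join opposite changes: Acta2 averaged 78.6 in the male and 1694 in the female group, and Col3a1 1266 and 226. Cholangiocyte and mesothelial markers summed to between 822 and 993 against between 585 and 594, with 4 of 8 called higher (Msln, Krt7, Upk3b and Wt1), 3 lower (Krt19, Sox9 and Krt18) and Epcam too low to test. Here too the changes were opposite, with Msln at a mean of 19.4 in the male and 332 in the female group, and Krt19 at 461 and 116. Hepatocyte markers summed to at most 1.22, and macrophage markers to at most 18.1 with Emr1 at 0 in both group means. Of these markers, Vwf, Gpr182, Lum, Upk3b and Wt1 passed the filter on low values only through the group where they are high, so the marker counts are a description. The part of cell makeup in the differences below was not tested, and in bulk RNA fewer cells of a type and less RNA per cell cannot be told apart.

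Ddit4, Sesn2 and Deptor, inhibitors of the pathway, were lower in the libraries labelled female, Ddit4 by 14.8-fold in the mean, Sesn2 by 2.09-fold and Deptor by 2.08-fold. Mtor, Rheb and Rictor were higher, at between 117% and 121% of their male level, though Rictor was called in only 6 of 16 alternative fits. None of these 3 had a false discovery rate under 0.05 in the authors' deposited table. Rptor, Tsc1, Tsc2 and Eif4ebp1 did not pass the test. Of the 10 members, 3 were called higher and 3 lower (limma, Benjamini-Hochberg adjusted p under 0.05 over all 12568 genes tested), a called share of 60.0%. Over all genes tested 69.3% were called, 34.6% higher and 34.6% lower, so the number of calls among the members is near the background. The members' median absolute log2 fold change was 0.23, against 0.46 over all genes tested. Differences of at least 1 on the log2 scale were called for 3 of the 10, Ddit4, Sesn2 and Deptor, and for 20.6% of all genes.

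**Figure D1:**
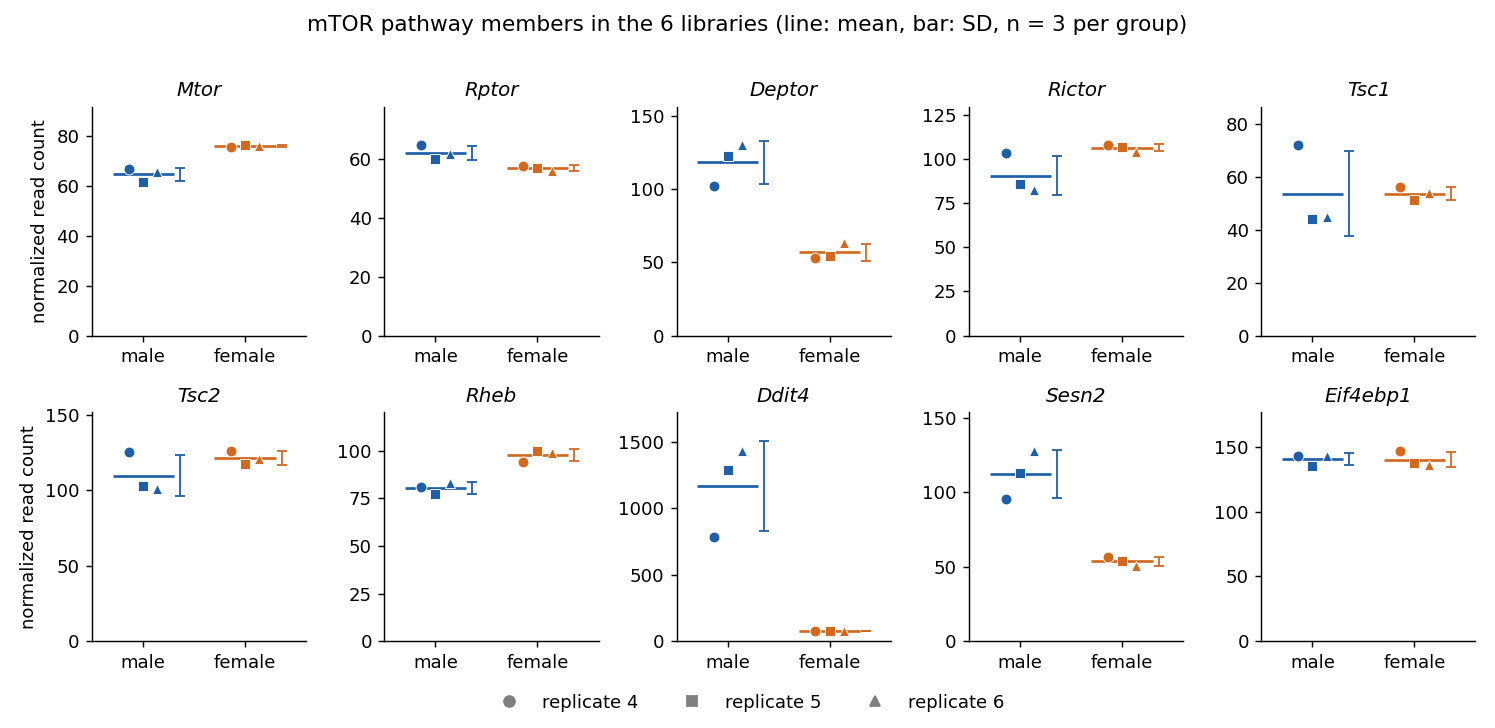
Normalized read count (vertical axis, from 0, a separate scale per gene) of the 10 members in each library, grouped by labelled sex; symbols give the replicate number, lines the group mean and bars the SD (n = 3). Ddit4, Sesn2 and Deptor are lower in all 3 libraries labelled female, while Tsc1, Tsc2 and Eif4ebp1 overlap, with male replicate 4 high for Tsc1 and low for Ddit4.

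Ddit4 encodes REDD1, which is known to be induced by hypoxia, glucocorticoids, starvation and DNA damage and which shuts complex 1 down through the TSC brake. Its normalized read count was 788, 1288 and 1436 in male replicates 4, 5 and 6 and 78.5, 79.7 and 78.6 in female replicates 4, 5 and 6. The libraries labelled female lay close together, every male library was far above them, and male replicate 4 was the lowest of its group. The means were 1170 ± 340 and 78.9 ± 0.660 (SD, n = 3), so the level in the libraries labelled female was 6.74% of that in the others. The log2 fold change was -3.83 (standard error 0.19, adjusted p 7.81e-07 by limma), and 0.716% of all genes tested had a larger absolute value. Without male replicate 4 it was -4.09 (limma adjusted p 5.21e-11).

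Sesn2 encodes sestrin 2, a leucine sensor that restrains the GATOR2 complex and is known as a target of ATF4 and p53. It stood at 95.6, 113 and 128 in male replicates 4, 5 and 6 and at 56.7, 53.8 and 50.5 in the female replicates of the same numbers. The groups did not overlap, and male replicate 4 was again the lowest of its group. The means of 112 ± 16.2 and 53.7 ± 3.10 (SD, n = 3) differed by a log2 value of -1.04 (standard error 0.11, adjusted p 4.12e-05 by limma).

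The promoter windows of these stress-induced genes are shown because both genes are known as induced at transcription by stress, and they were lower by different amounts. The windows run from 250 bases before to 50 bases after the RefSeq start site, from RefSeq on GRCm38.p6, and are written 5′ to 3′ on the gene's strand. Ddit4 lies at chr10:59951721-59952020 (minus strand) and Sesn2 at chr4:132510407-132510706 (minus strand). Capitals mark any of 4 short motifs searched on both strands: ACGTG, the core of the hypoxia response element; GCGTG, the core of the aryl hydrocarbon response element; TGATGNAA, the core of the amino acid response element; and CACGTG, the E-box, which contains ACGTG.
Ddit4: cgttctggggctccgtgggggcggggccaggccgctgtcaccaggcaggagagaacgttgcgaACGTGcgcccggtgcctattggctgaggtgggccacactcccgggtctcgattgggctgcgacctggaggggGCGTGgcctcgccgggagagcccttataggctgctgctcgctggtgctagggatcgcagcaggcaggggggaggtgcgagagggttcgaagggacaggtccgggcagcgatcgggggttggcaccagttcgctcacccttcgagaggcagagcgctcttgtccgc
Sesn2: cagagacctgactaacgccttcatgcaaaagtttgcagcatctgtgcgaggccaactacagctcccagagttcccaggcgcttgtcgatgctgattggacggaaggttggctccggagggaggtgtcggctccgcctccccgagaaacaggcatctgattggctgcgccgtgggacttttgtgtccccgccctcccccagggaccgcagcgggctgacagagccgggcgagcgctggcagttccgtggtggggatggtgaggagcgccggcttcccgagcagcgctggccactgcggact
The Ddit4 window held 1 ACGTG, with its leftmost base at -187 from the start site, and 1 GCGTG, at -115. None of the 4 motifs occurred in the Sesn2 window, which says only that these letters are not in these 300 bases. Windows were found for 8 of the 10 members, Deptor and Eif4ebp1 being the other two. Among these 8, ACGTG occurred in 3 (Ddit4, Rptor and Rheb), against 19.6% of all 32851 windows. GCGTG occurred in 5 (Ddit4, Rptor, Rictor, Tsc1 and Tsc2), against 32.4% of all windows. The E-box occurred in 1, that of Rheb, where 7.15% of all windows held it, and TGATGNAA in 0, where 3.97% held it. ACGTG and GCGTG thus each occurred in windows of members that were lower, higher and not called. Ddit4 was the only lower member among these, since Sesn2 held no motif and Deptor had no window. Whether the motifs go with the direction of change was not tested.

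Deptor encodes the DEP-domain protein that binds mTOR and inhibits both complexes. Its normalized read count was 102, 123 and 130 in male replicates 4, 5 and 6 and 52.9, 54.1 and 63.4 in female replicates 4, 5 and 6. The groups did not overlap. The means were 118 ± 14.6 and 56.8 ± 5.73 (SD, n = 3), a log2 difference of -1.04 (standard error 0.11, adjusted p 4.34e-05 by limma). Deptor and Sesn2 thus differed by nearly the same amount in the main fit, at 48.0% and 47.9% of their levels in the libraries labelled male. Over the 16 alternative fits Deptor ran from -1.27 to -0.97 and Sesn2 from -1.15 to -0.80.

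Mtor, the kinase itself, stood at 66.7, 61.7 and 65.7 in the male replicates and 75.6, 76.5 and 76.2 in the female replicates, in the order 4, 5 and 6. The groups did not overlap, and the spread was smaller than the gap between them. The log2 fold change was 0.23 (standard error 0.06, adjusted p 0.00788 by limma). As a ratio, the 95% interval ran from 1.07 to 1.29.

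Rptor, the scaffold that brings substrates to complex 1, was read at 64.8, 60.1 and 61.7 in the male and 57.8, 57.1 and 56.0 in the female replicates. Every library labelled female lay below every one labelled male, yet the difference did not pass the test (log2 fold change -0.12, SE 0.06, limma adjusted p 0.0988). Its 95% interval as a ratio ran from 0.833 to 1.01, and the difference turned to 0.016 after a correction for GC content and length. Groups that do not overlap were common: this held for 7 of the 10 members and for 74.1% of all genes tested.

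Rictor, the scaffold of complex 2, was read at 103, 86.1 and 82.3 in the male and 108, 107 and 104 in the female replicates. Male replicate 4 lay close to the libraries labelled female, without overlap. The log2 fold change of 0.24 (standard error 0.09, adjusted p 0.0378 by limma) passed narrowly. It missed the threshold with median-ratio (RLE) size factors (limma adjusted p 0.0504), in edgeR (adjusted p 0.0588) and DESeq2 (adjusted p 0.0671) on the recovered reads and in voom (adjusted p 0.0501), and turned to -0.07 after a correction for GC content and length. It was 0.33 without male replicate 4 (limma adjusted p 0.000177), and without any other 1 library it missed the threshold (limma adjusted p between 0.0732 and 0.136). It was thus called in 6 of 16 alternatives.

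Tsc1 and Tsc2 encode the subunits of the brake on Rheb. Tsc1 stood at 72.1, 44.3 and 44.8 in male replicates 4, 5 and 6 and at 56.2, 51.1 and 53.8 in the female replicates. The libraries labelled female lay between male replicate 4 and the other two, and the group means were both 53.7 (log2 fold change 0.04, SE 0.17, limma adjusted p 0.864). Tsc2 stood at 125, 103 and 101 in the male and 126, 117 and 121 in the female replicates, with male replicate 4 inside the female range, and did not pass the test (0.15, SE 0.09, limma adjusted p 0.153). Without male replicate 4 both were called higher in the libraries labelled female, Tsc1 by 0.26 (limma adjusted p 0.00309) and Tsc2 by 0.25 (limma adjusted p 0.00132). Tsc2 was also called with all libraries after quantile normalization (0.23, limma adjusted p 0.0252) and after the GC content and length correction (0.26, limma adjusted p 0.0149). Of the 10 members, 8 were called without male replicate 4, 5 higher and 3 lower, where 74.8% of all genes were called.

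Rheb, the GTPase that activates complex 1, was read at 81.1, 77.3 and 83.1 in the male and 94.4, 100.2 and 98.8 in the female replicates. The groups did not overlap. The log2 fold change was 0.28 (standard error 0.06, adjusted p 0.00318 by limma), the largest among the members called higher. Its call held in all 16 alternatives fitted, as did those of Mtor, Ddit4, Sesn2 and Deptor.

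Eif4ebp1 encodes 4E-BP1, the translation repressor that complex 1 phosphorylates and so releases from the cap-binding protein. It was read at 143, 135 and 143 in the male and 147, 137 and 136 in the female replicates. The groups overlapped throughout, and the group means were 140.4 and 140.1 (log2 fold change -0.0037, SE 0.06, limma adjusted p 0.958). The 95% interval of the ratio ran from 0.908 to 1.10. Of its 50-base words 7.49% also occur in transcripts of other genes, so a small part of its reads could be shared.

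**Figure D2:**
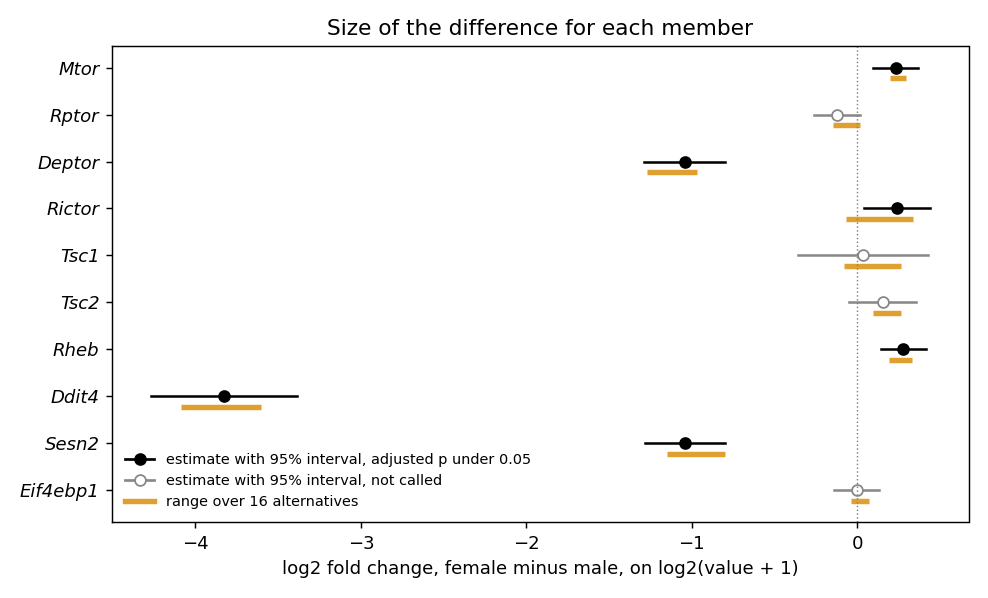
Log2 fold change of female minus male (horizontal axis, on log2(value + 1)) for each member, with its 95% interval from limma; filled points passed an adjusted p under 0.05, and the orange bar below each gives the range over 16 alternative fits. Ddit4 lies near -3.83, Sesn2 and Deptor near -1.04, and the other 7 members within 0.28 of 0; the ranges of Rptor, Rictor, Tsc1 and Eif4ebp1 cross 0.

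In the authors' deposited table, Ddit4 has a signed fold change of -14.8 with a false discovery rate of 3.61e-08, Sesn2 -2.09 with 0.00783 and Deptor -2.08 with 0.0487. Those were the 3 members under 0.05 in the authors' deposited table, where 25.8% of all genes were. Mtor (1.18, false discovery rate 0.483), Rheb (1.21, 0.376) and Rictor (1.17, 0.741) missed 0.05 in the authors' deposited table, whereas Mtor and Rheb passed in limma and in edgeR and DESeq2 on the recovered reads.

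Ratios within a library do not depend on how libraries were scaled. The read count of Ddit4 over that of Mtor was 11.8, 20.9 and 21.9 in male replicates 4, 5 and 6 and 1.04, 1.04 and 1.03 in the female replicates, a mean 17.5 times as large in the libraries labelled male. Sesn2 over Mtor averaged 1.74 ± 0.270 against 0.705 ± 0.0435 (SD, n = 3), and Deptor over Mtor 1.83 ± 0.263 against 0.746 ± 0.0743. The inhibitors thus stood lower against the kinase in each library labelled female. Rictor over Rptor, the scaffolds of complexes 2 and 1, went the other way, at 1.59, 1.43 and 1.33 in the male and 1.87, 1.87 and 1.86 in the female replicates. Of 7 such ratios computed, 6, including these 4, did not overlap between groups, each with a two-sided exact permutation p of 0.1, the smallest that 3 against 3 allows (0.117 adjusted over the 7). Among single genes, 74.1% of all tested did not overlap between groups either, and no such share was computed for ratios. Tsc2 over Tsc1 overlapped (exact permutation p 0.7). The correction for GC content and length, which acts on a ratio of different genes, removed the higher ratio of Rictor to Rptor (log2 difference -0.08).

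**Figure D3:**
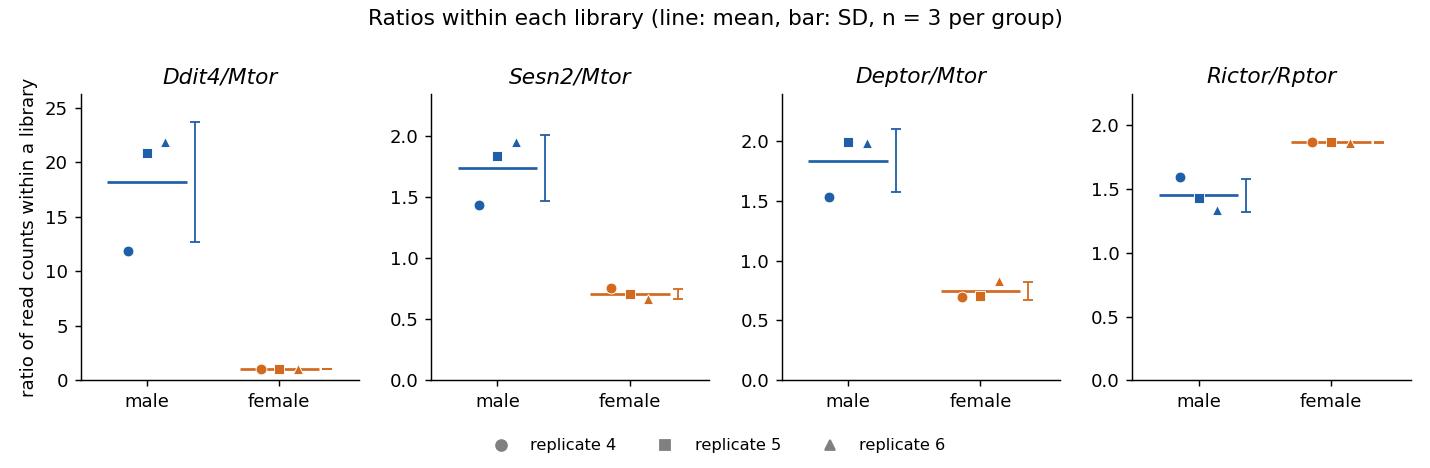
Ratio of normalized read counts within each library (vertical axis, from 0) for Ddit4, Sesn2 and Deptor over Mtor and for Rictor over Rptor; symbols give the replicate number, lines the mean and bars the SD (n = 3). The first 3 ratios are lower and Rictor over Rptor higher in every library labelled female.

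Scaled by transcript length, Ddit4 was the most abundant member in the libraries labelled male, with a mean normalized read count per kilobase of 667 against 70.3 for Eif4ebp1, 32.3 for Sesn2 and 7.55 for Mtor. In the libraries labelled female it stood at 45.0 per kilobase, below Eif4ebp1 at 70.1 and above Rheb at 24.2 and Sesn2 at 15.4. Tsc2 was more abundant per kilobase than its partner Tsc1 in both groups (17.5 against 6.98, and 19.4 against 6.97).

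Paralogs of the members did not all follow them. Ddit4l, which encodes the REDD1 relative REDD2, was read at 19.0, 10.4 and 9.82 in male replicates 4, 5 and 6 and 32.9, 36.6 and 33.0 in the female replicates. It was higher where Ddit4 was lower, by 1.38 on the log2 scale (standard error 0.21, adjusted p 0.000499 by limma). Per kilobase it remained below Ddit4 in both groups, at 4.81 and 12.6. Sesn1, a sestrin known as a p53 target, was lower as Sesn2 was (18.0 ± 1.67 against 10.8 ± 0.482, SD, n = 3, log2 fold change -0.69, limma adjusted p 0.000305). Sesn3 did not pass the test (-0.19, limma adjusted p 0.201) but was called lower after the GC content and length correction (-0.42), and both were below Sesn2 per kilobase in each group. Eif4ebp2, encoding the repressor 4E-BP2, was read at 18.6, 14.2 and 14.6 in the male and 39.2, 37.6 and 41.4 in the female replicates. The groups did not overlap, and it was higher by 1.27 (standard error 0.11, adjusted p 1.59e-05 by limma). Eif4ebp2 over Eif4ebp1 was 2.50 times as large in the libraries labelled female. Eif4ebp3 (-0.15, limma adjusted p 0.396) shares 65.5% of its 50-base words with other genes and is uncertain. Rhebl1, a relative of Rheb, was weakly read, at between 0.419 and 0.581 in the male and between 1.14 and 1.74 in the female replicates. It passed the filter on low values (at least 1 in 3 libraries) only through the libraries labelled female, so nothing is read from its call.

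Of the 9 mTOR complex subunits, members included, 4 were called higher and 2 lower, where 34.6% of all genes were called in each direction. Their median log2 fold change was 0.21, and 0.02 after the GC content and length correction. Of the 5 genes of the TSC complex and Rheb, 2 were called higher, Rheb and the Rhebl1 that passed the filter only where it is high, and 0 lower (median 0.15, and between 0.06 and 0.26 over the alternatives). Without male replicate 4 the TSC list held 4 calls, and without female replicate 4 or 5, where Rhebl1 was not tested, it held 1. Rhebl1 was not tested without female replicate 6 either, where the list held 2 calls, 1 higher and 1 lower. Mapkap1, the complex 2 subunit mSIN1, was higher by 0.23 (standard error 0.06, adjusted p 0.0111 by limma), close to Rictor and Mtor. Mlst8, shared by both complexes (-0.20, limma adjusted p 0.176), Akt1s1, the complex 1 inhibitor PRAS40 (0.21, limma adjusted p 0.0527), and Tbc1d7, the third TSC subunit (-0.26, limma adjusted p 0.132), did not pass. Without male replicate 4, Mlst8 (-0.33) and Akt1s1 (0.26) were called, and without female replicate 6, Akt1s1 (0.29) and Tbc1d7 (-0.39). Akt1s1 was also called with the replicate number as a block, after quantile normalization (0.26) and after the GC content and length correction (0.50). The complex 2 partners Prr5 and Prr5l were weakly read, Prr5 at 3.18 ± 0.702 against 6.64 ± 1.26 (0.87, limma adjusted p 0.00196) and Prr5l at 1.58 ± 0.222 against 0.859 ± 0.156 (-0.47, limma adjusted p 0.00985).

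Beyond the members, 8 lists of signalling genes around mTOR held 72 further genes in the table, of which 71 were tested. Of these, 22 were called higher, 27 lower and 22 not called, so 49 were called, or 69.0%, close to the 69.3% of all genes tested. Their median log2 fold change was -0.10, against 0.01 over all genes. Their median absolute value was 0.36, against 0.46, and 8 of them reached 1, against 20.6% of all genes.

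The lysosomal branch carries the amino acid signal. Among Rag GTPases, Ragulator and folliculin genes, 6 of 12 tested were called lower and 2 higher, against 34.6% of all genes in each direction, with a median of -0.26. After the GC content and length correction 4 were called lower and 2 higher, with a median of -0.13. The 8 calls fell to 5 without female replicate 5 or without female replicate 6. Fnip2, a partner of folliculin, was at 153, 201 and 218 in male replicates 4, 5 and 6 and 44.3, 44.4 and 40.7 in the female replicates, a difference of -2.11 on the log2 scale (standard error 0.12, adjusted p 1.75e-06 by limma). Its relative Fnip1 (-0.53) and Flcn (-0.46), folliculin itself, were lower too, while the Ragulator anchor Lamtor1 (0.36) and the GTPase Rragc (0.19) were higher. Rragc lost its call in DESeq2 (adjusted p 0.0593) and without any 1 library other than male replicate 4 (limma adjusted p between 0.0511 and 0.104). With the replicate number as a block, 1 gene of this list was called higher and 5 lower. Flcn lost its call without male replicate 6, female replicate 5 or female replicate 6 (limma adjusted p between 0.0502 and 0.0556) and after the GC content and length correction (-0.30, limma adjusted p 0.0601). Of the GATOR and KICSTOR genes, which relay and restrain that signal, 6 of 11 were called lower and 3 higher, again against 34.6% each way. Their median was -0.27, -0.17 after the GC content and length correction and -0.18 without male replicate 6. Depdc5, a subunit of the inhibitory GATOR1 complex, was higher, at 22.1 ± 2.29 against 54.5 ± 0.901 (SD, n = 3), or 1.27 higher on the log2 scale (standard error 0.09, adjusted p 4.18e-06 by limma). Mios (0.66) was also higher, and Wdr24 (-0.61), Seh1l (-0.57) and Kptn (-0.57) lower. In the list of stress inhibitors and nutrient sensors, which contains Ddit4 and Sesn2, 6 of 9 were called lower and 2 higher (median -0.50). Trib3, a pseudokinase that binds AKT, was lower (-0.71, limma adjusted p 0.00161). Of the arginine sensor genes, Castor2 (listed as Gatsl2) was lower (-0.50). Castor1 (listed as Gatsl3) was higher by 0.49 (limma adjusted p 0.0306), a call lost without female replicate 4 (limma adjusted p 0.109) or female replicate 5 (limma adjusted p 0.0991).

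Among effectors of complex 1, 3 of 15 were called higher, 4 lower and 8 not called, where 69.3% of all genes were called (median -0.0037, and between -0.04 and 0.07 over the alternatives). Eif4g1, the scaffold of the cap-binding complex, was higher, at 673 ± 14.5 against 1105 ± 18.2 (SD, n = 3), by 0.71 (standard error 0.06, adjusted p 1.08e-05 by limma), whereas the cap-binding protein gene Eif4e was lower (-0.44, limma adjusted p 0.000981). S6 kinase 1, Rps6kb1, was higher by 0.24 (limma adjusted p 0.00465), a difference that turned to -0.03 after the GC content and length correction, and Rps6kb2 did not pass (-0.03, limma adjusted p 0.808). Lpin1 (-0.84) and Grb10 (-0.56), both substrates of the pathway, were lower. Without male replicate 4, 11 of the 15 were called, 6 higher and 5 lower, where 74.8% of all genes were.

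Insulin and growth factors reach the pathway through PI3K and AKT. Of 13 genes of this input, 6 were called higher and 4 lower, against 34.6% of all genes in each direction. Their median was 0.34, and 0.19 after the GC content and length correction. Pik3cb, a catalytic subunit of PI3K, was at 3.03, 2.97 and 2.26 in male replicates 4, 5 and 6 and 44.7, 46.4 and 45.4 in the female replicates. Its log2 fold change of 3.64 (standard error 0.11, adjusted p 6.61e-08 by limma) was close in size to that of Ddit4 and opposite in sign. The insulin receptor substrate Irs1 (2.14) and Akt1 (0.95) were higher, and the regulatory subunit Pik3r1 (-1.76) and the insulin receptor Insr (-0.94) lower. Of the 7 genes of the AMPK input, which senses energy and activates the TSC brake, 3 were called higher and 2 lower (median 0.06, and between 5.6e-05 and 0.19 over the alternatives). Prkaa2 was higher, at 1.31 ± 0.423 against 13.0 ± 1.67 (SD, n = 3), by 2.61 (standard error 0.16, adjusted p 2.61e-06 by limma), but remained below Prkaa1, its more abundant paralog, which was at 25.5 and 28.9 per kilobase against 0.164 and 1.63. Prkag2 (0.79) was higher and Stk11 (-0.36) and Prkab1 (-0.38) lower. Only 2 AMPK genes, both higher, were called after the GC content and length correction, which took the call from Stk11 (-0.10), Prkab1 (-0.21) and Prkaa1 (-0.05). Prkaa1 also missed the threshold without male replicate 5 or 6 or female replicate 5 or 6 (limma adjusted p between 0.0569 and 0.0865).

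**Figure D4:**
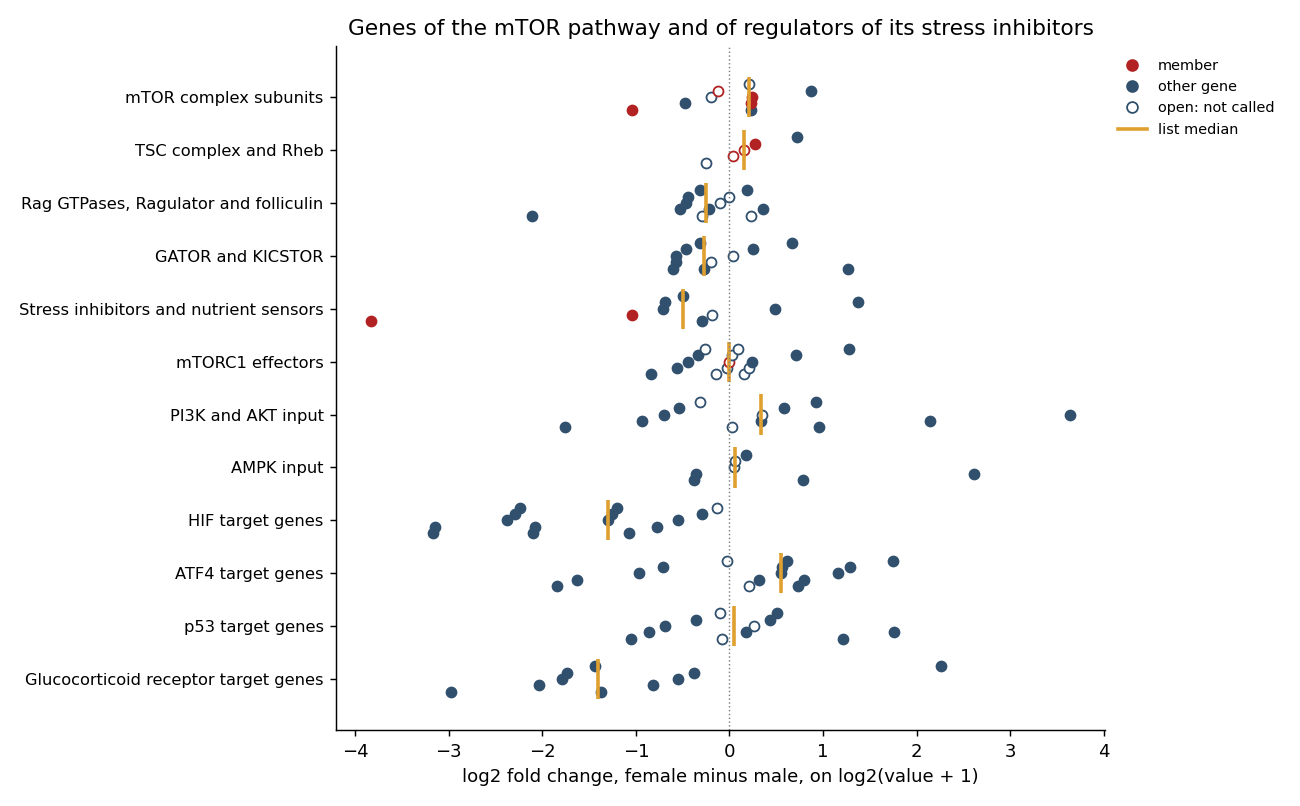
Log2 fold change of female minus male (horizontal axis, on log2(value + 1)) for each tested gene of 12 lists (rows); red points are members, open points did not pass an adjusted p under 0.05, and orange lines give the list median. Hypoxia and glucocorticoid lists centre at -1.30 and -1.40, the ATF4 list at 0.55, and the mTOR, TSC, effector and AMPK lists within 0.21 of 0.

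Ddit4 and Sesn2 are known to be induced through HIF, ATF4, p53 and the glucocorticoid receptor, and targets of each were listed. HIF targets were lower: 14 of 15 were called lower and 0 higher (median -1.30, against 34.6% called lower and a median of 0.01 over all genes), P4ha1 being the exception at -0.13 (limma adjusted p 0.224). Car9 (-3.16), Ndrg1 (-3.14) and the glucose transporter gene Slc2a1 (-2.37) were among them. The pseudocount of 1 shrinks the value of the weakly read Car9, whose means differed by 17.2-fold, against 14.8-fold for Ddit4. Of the glucocorticoid receptor targets, 9 of 10 were called lower and 1 higher (median -1.40). Mt2, a metallothionein gene (-2.97), Zbtb16 (-2.03) and Errfi1 (-1.79) were lower, and the kinase gene Sgk1 higher (2.26, SE 0.18, limma adjusted p 9.18e-06).

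Of 15 ATF4 targets, 9 were called higher and 4 lower (median 0.55), where 34.6% of all genes were called in each direction, and Atf4 itself did not pass (0.21, limma adjusted p 0.213). Asns, asparagine synthetase (1.29), Chac1 (1.75) and Phgdh (1.16) were higher, although Phgdh shares 63.1% of its 50-base words with other genes and is uncertain. Ddit3, which encodes the stress factor CHOP, was lower at 48.3 ± 2.97 against 176 ± 16.7 (SD, n = 3), with a log2 difference of -1.84 (standard error 0.08, adjusted p 4.85e-07 by limma), with Vldlr (-1.62) and Nupr1 (-0.96). Sesn2 and Trib3 were on the side of Ddit3. Of 12 p53 targets, 5 were called higher and 4 lower, a called share of 75.0% near the 69.3% of all genes (median 0.05, and between 0.0024 and 0.12 over the alternatives), with Plk2 (1.75), Ccng1 (1.21) and Zmat3 (0.51) higher and Cdkn1a (-1.05), Bbc3 (-0.86) and Sesn1 (-0.69) lower. These lists were chosen with results on these libraries known, and which regulator bears on Ddit4 or Sesn2 was not tested.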

How the data were processed

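Poly(A) RNA was sequenced from 6 libraries, 3 per labelled sex. The submitters' processing notes name Bowtie2, RSEM, edgeR and mm39, without versions or order, and the filter behind the table is not given in the sources used here. The deposited signal values are read counts that the authors scaled by 1 factor per library: 100% of the values in each column were whole multiples (tolerance 0.001) of its smallest value above 0, and 1 read was worth between 0.0353 and 0.0475. The deposited score is the authors' signed fold change and the deposited p-value columns hold, per the file headers, their p and false discovery rate. Columns of per-sample values left unused numbered 0.

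limma 3.58.1 in R 4.3.3 (eBayes with trend) was fitted to log2(value + 1) over 12568 genes with at least 1 in at least 3 libraries, with sex as the sole term, no block and Benjamini-Hochberg adjustment. Fold changes on that scale understate those of weak genes. edgeR 4.0.16, run on recovered reads with its quasi-likelihood test, called 8975 of 13199 genes, and limma 8704. Scripts were tested on simulated data. The members, lists, motifs and tests were chosen with earlier results of these data known. Named are all members, their paralogs and the mTOR and TSC subunits, and from each of 12 lists up to 3 called genes per direction with the largest change, groups that do not overlap and a mean from 5 up. Symbols absent from the table were matched through RefSeq synonyms (GRCm38.p6), and Kics2 was not matched. Some genes that this rule names are not reported here. Lengths and shared 50-base words came from the longest coding transcript in GENCODE M21, so values per kilobase assume that transcript. Alternatives were other scalings, filters, pseudocounts and tests, the replicate number as a block, and each library left out; the GC content and length correction was chosen after seeing the data.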

Additional observations from a re-analysis of the deposited data

How the results depend on the processing

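Ddit4, Sesn2, Deptor, Mtor and Rheb kept direction and call in all 16 alternatives, from -4.09 to -3.60, -1.15 to -0.80, -1.27 to -0.97, 0.20 to 0.29 and 0.19 to 0.33 on the log2 scale. Rictor lost its call with RLE size factors (0.23), edgeR (0.22), DESeq2 (0.22) and voom (0.23) and ran from 0.17 to 0.33 with 1 library left out, being called in that series only without male replicate 4. The GC content and length correction, added after seeing the data, turned Rictor (-0.069), Rptor (0.016), Rps6kb1 (-0.030), Rps6kb2 (0.14) and Prkaa1 (-0.048), left 2 AMPK calls and called Tsc2 (0.26), as quantile normalization did (0.23). The last also turned Eif4ebp1 (0.073) and Rps6kb2 (0.065), neither called, and moved the median of all genes from 0.01 to 0.08. Tsc1 turned in edgeR (-0.011) and DESeq2 (-0.013). With 1 library left out, Tsc1 ran from -0.083 to 0.26, Tsc2 from 0.10 to 0.25, Eif4ebp1 from -0.039 to 0.017 and Rps6kb2 from -0.049 to 0.0036; calls ran from 1 to 4 in the TSC list, 5 to 9 in the Rag list and 7 to 11 among effectors. The TSC list held 4 calls without male replicate 4 and 1 without female replicate 4 or 5. Rhebl1, which passed the filter only through the libraries labelled female, was not tested whenever 1 of these was left out. The Rag list held 5 without female replicate 5 or 6. The cause of the other changes was not tested. Also requiring a difference of 1 or more on the log2 scale left by construction 2589 genes, 3 members, 1 mTOR subunit, 0 TSC, 1 Rag, 1 GATOR, 3 stress inhibitor, 1 effector, 3 PI3K, 1 AMPK, 5 ATF4 and 3 p53 genes. Of 1069 values for 67 other named genes, 1033 kept direction and call.

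Equal replicate numbers did not mark pairs: deviations of same-numbered libraries correlated across genes at -0.09, -0.03 and -0.17, and no library correlated best with its own number. With the replicate block 8314 genes were called against 8704, and the same 6 members.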

Other observations

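Over all genes tested, male replicate 4 was the lowest male library for 45.0% and the highest for 40.2%. Among the 10 members it was the lowest for Ddit4, Sesn2 and Deptor and the highest for 5 (Mtor, Rptor, Rictor, Tsc1 and Tsc2), a division that was not tested against that of all genes. Among the 15 HIF targets it was the lowest for 4 (Vegfa, Car9, Ankrd37 and Adm) and the highest for 10. Vegfa stood at 1112 there against 1551 and 1679, whereas Ndrg1 stood at 2351 against 1641 and 1768; this pair was chosen after its values were seen. The cause was not tested.

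Over the 6 libraries, the profiles of log2 values nearest to Ddit4, among 8966 genes with a mean of at least 10, were those of Gem, Disp2 and Egfl7, with root mean square differences of 0.12, 0.13 and 0.16. Gem encodes a small GTPase and stood at 31.2, 48.5 and 47.8 in male replicates 4, 5 and 6 and 2.28, 2.56 and 1.99 in the female replicates. Egfl7 is an endothelial gene of the marker list. The pseudocount of 1 shrinks the differences of these weakly read genes. The means of Gem, Disp2 and Egfl7 differed by 18.6-fold, 15.8-fold and 18.9-fold, against 14.8-fold for Ddit4. Nearest to Sesn2 were Slc23a2, a vitamin C transporter gene, Pkig and Cnp, at 0.038, 0.038 and 0.046.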
